A study of Mus musculus with 8 samples.

Results

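The genes described here are 43 enzymes, carriers and receptors of fatty acid oxidation and ketone body metabolism, measured by RNA sequencing of mouse dorsal skin. They were chosen by name and comprise acyl-CoA dehydrogenases, trifunctional protein and other enzymes of the mitochondrial spiral (15 genes), the carnitine shuttle (6), electron transfer from the dehydrogenases (3), peroxisomal oxidation (7), fatty acid activation and thioesterases (7), ketone body enzymes (3) and the nuclear receptors Ppara and Ppard (2). Each gene was placed under a single role, and Eci2 and Acad11, counted with the mitochondrial spiral, are also known from peroxisomes. All 43 were among the 22740 protein-coding genes counted, and all 43 were among the 15163 genes with enough counts to be tested.

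The skin came from 8 female BALB/c mice, all labelled as 6 to 8 weeks old, each mouse giving 1 library and each of 4 groups holding 2 mice, and all were fed a low-fibre diet. CTL mice drank water, and butyrate mice (labelled SCFA, for short-chain fatty acid) drank water with 400 mM sodium butyrate. Lesional skin had been shaved and covered on 4 occasions over 2 weeks with a patch holding 15 µg of house dust mite (HDM) extract, butyrate having been started 2 weeks earlier and continued throughout. Baseline skin of the other mice received no HDM. The 4 groups were therefore baseline CTL (replicates 1 and 2), baseline butyrate (replicates 1 and 3), lesional CTL (replicates 4 and 5) and lesional butyrate (replicates 3 and 4). The first number in the labels separates the baseline from the lesional mice, so HDM exposure and the set of mice cannot be told apart. Nor can HDM and the patch itself, as no group is labelled as given a patch without HDM.

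Long-chain fatty acids are joined to coenzyme A by acyl-CoA synthetases, carried into mitochondria by the carnitine shuttle, and shortened there in repeated rounds of dehydrogenation, hydration, dehydrogenation and thiolysis. Very long and branched chains are first shortened in peroxisomes, and butyrate, itself a short-chain fatty acid, can be oxidised in mitochondria once it is activated. Ketone bodies are made mainly in the liver and are turned back into acetyl-CoA elsewhere by Bdh1, Oxct1 and Acat1. PPARα and PPARδ are fatty acid receptors that bind DNA and induce many of these genes, and PPARδ is well known in keratinocytes, whose barrier depends on lipid handling.

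The libraries held 18004136 to 21085544 counts, and levels are given as CPM, a count relative to the size of its library, on library sizes scaled by the trimmed mean of M-values (TMM). Baseline butyrate replicate 3 stood apart from the other 7 mice. Its summed hair follicle markers (6 of 7 listed genes counted) reached 16841 CPM against 6.20 to 14.2 CPM elsewhere, its summed skeletal muscle markers (10 of 10) were 11400 CPM against 45254 to 53989 CPM in the other baseline mice, and 3808 of 14319 genes at 1 CPM or more differed over 2-fold from its replicate, against 183 to 634 genes in the other pairs. Of the 43 genes, 9 differed over 2-fold within the baseline butyrate pair, compared with 0 in both CTL pairs and 2 in the lesional butyrate pair. Results are therefore given with all 8 mice and without this mouse. The label of skin was checked against keratinocyte markers (8 of 8 counted, none at 0), which summed to 8918 to 21417 CPM in each mouse. With bulk skin, fewer cells of a type and less RNA per cell cannot be told apart.

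**Figure D1:**
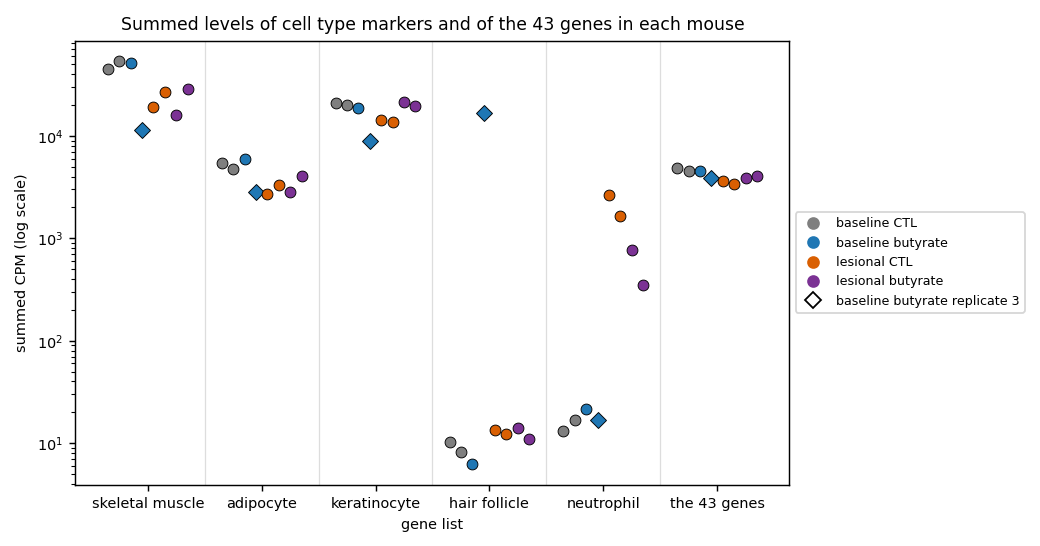
Summed CPM (log scale) of cell type marker lists and of the 43 genes, with 1 point per mouse in group order. The diamond, baseline butyrate replicate 3, is at 16841 CPM for hair follicle markers, while the 43 genes together lie between 3414 and 4825 CPM in all mice.

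Promoter sequences of 36 of the 43 genes were found in RefSeq (GRCm38.p6), each running from 250 bases before to 50 bases after the gene's start. The windows of Acot1 and Acot2 are shown because these neighbouring thioesterase genes, whose windows start 21641 bases apart on chromosome 12, had unlike values with butyrate in lesional skin. Acot1 lies at chr12:84009490-84018371 and Acot2 at chr12:83987861-83993873, both on the plus strand, and 154 of 329 aligned columns of the windows (46.8%) were identical.
Acot1 (chr12:84009252-84009551, plus strand): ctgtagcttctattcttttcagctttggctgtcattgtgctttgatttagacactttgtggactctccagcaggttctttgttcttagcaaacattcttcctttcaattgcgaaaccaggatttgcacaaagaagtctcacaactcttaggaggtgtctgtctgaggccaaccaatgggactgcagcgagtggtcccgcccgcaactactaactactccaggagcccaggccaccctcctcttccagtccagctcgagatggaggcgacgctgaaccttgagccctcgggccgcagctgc
Acot2 (chr12:83987611-83987910, plus strand): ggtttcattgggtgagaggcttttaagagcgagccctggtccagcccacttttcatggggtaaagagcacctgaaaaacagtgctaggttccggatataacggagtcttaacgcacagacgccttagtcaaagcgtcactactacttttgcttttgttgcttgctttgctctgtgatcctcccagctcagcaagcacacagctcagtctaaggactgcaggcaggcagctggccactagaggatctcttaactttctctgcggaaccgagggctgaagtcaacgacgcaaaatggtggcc

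Hadha and Hadhb, which encode the α and β subunits of the mitochondrial trifunctional protein, are arranged head to head on chromosome 5, and their promoter windows share 228 bases. The Hadhb window is shown since most of it belongs to both.
Hadhb (chr5:30155003-30155302, plus strand): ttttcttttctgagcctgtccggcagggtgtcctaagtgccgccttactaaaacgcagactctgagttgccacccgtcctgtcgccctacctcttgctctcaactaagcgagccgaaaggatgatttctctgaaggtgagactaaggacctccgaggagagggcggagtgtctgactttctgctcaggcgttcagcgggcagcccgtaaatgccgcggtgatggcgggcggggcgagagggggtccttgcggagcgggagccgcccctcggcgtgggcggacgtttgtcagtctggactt

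PPARs bind with RXR to a direct repeat of the half-site AGGTCA separated by 1 base. All windows of the 36 genes were searched on both strands for this repeat, and the best match of each gene was counted. None of the 36 genes held it exactly or with 1 mismatch, while 13 and 174 of all 27025 genes with a window did (0.048% and 0.644%). With up to 2 mismatches in the repeat, 4 of the 36 held it (11.11%), against 1190 of all genes (4.403%). The surroundings of these matches are shown with the 13 matched bases in capitals, on the strand of the gene. A match describes letters and is not a site of binding. The Acox2 match is from 1 of its windows, and the best match of its other window had 3 mismatches.
Echs1 (chr7:140116472-140116524, minus strand): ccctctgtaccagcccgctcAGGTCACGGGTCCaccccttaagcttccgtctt
Etfa (chr9:55512288-55512340, minus strand): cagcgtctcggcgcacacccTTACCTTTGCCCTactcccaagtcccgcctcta
Slc25a20 (chr9:108662122-108662174, plus strand): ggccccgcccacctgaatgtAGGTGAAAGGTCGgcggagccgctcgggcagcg
Acox2 (chr14:8258798-8258850, minus strand): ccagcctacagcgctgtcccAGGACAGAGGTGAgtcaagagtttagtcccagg

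Per kilobase of exon, the median level over the 8 mice was highest for Acadl, the long-chain acyl-CoA dehydrogenase (85.2 CPM per kb), the thiolase Acaa2 (84.2), Oxct1, which transfers coenzyme A to acetoacetate (82.8), the synthetase Acsl5 (73.0) and the electron transfer subunit Etfb (69.1). The order at the top differed by group: in lesional butyrate skin the mean of Acsl5 (89.4 CPM per kb) was above that of Acadl (74.9), and that of Acaa2 was 96.1 in baseline CTL and 58.1 in lesional CTL skin. Over the 8 mice, Acsl1 stood at 28.5, Cpt1a at 11.8, Acot1 at 11.7, Bdh1 at 8.65, Ppard at 7.45 and Ppara at 1.39 CPM per kb. The lowest were Acsl6 (0.627) and Cpt1b, the muscle form of carnitine palmitoyltransferase 1 (0.267). Some of these genes share sequence with other annotated genes, and their counts are uncertain to that extent: 78.6% of the 50-base stretches of Cpt1b, 44.8% of Etfb, 30.5% of Acaa1b, 27.7% of Acot2, 19.7% of Hadhb and 19.2% of Acot1 also occur in another gene, while 0% do for Acaa2, Bdh1, Ehhadh, Acox2 and Ppara.

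**Figure D2:**
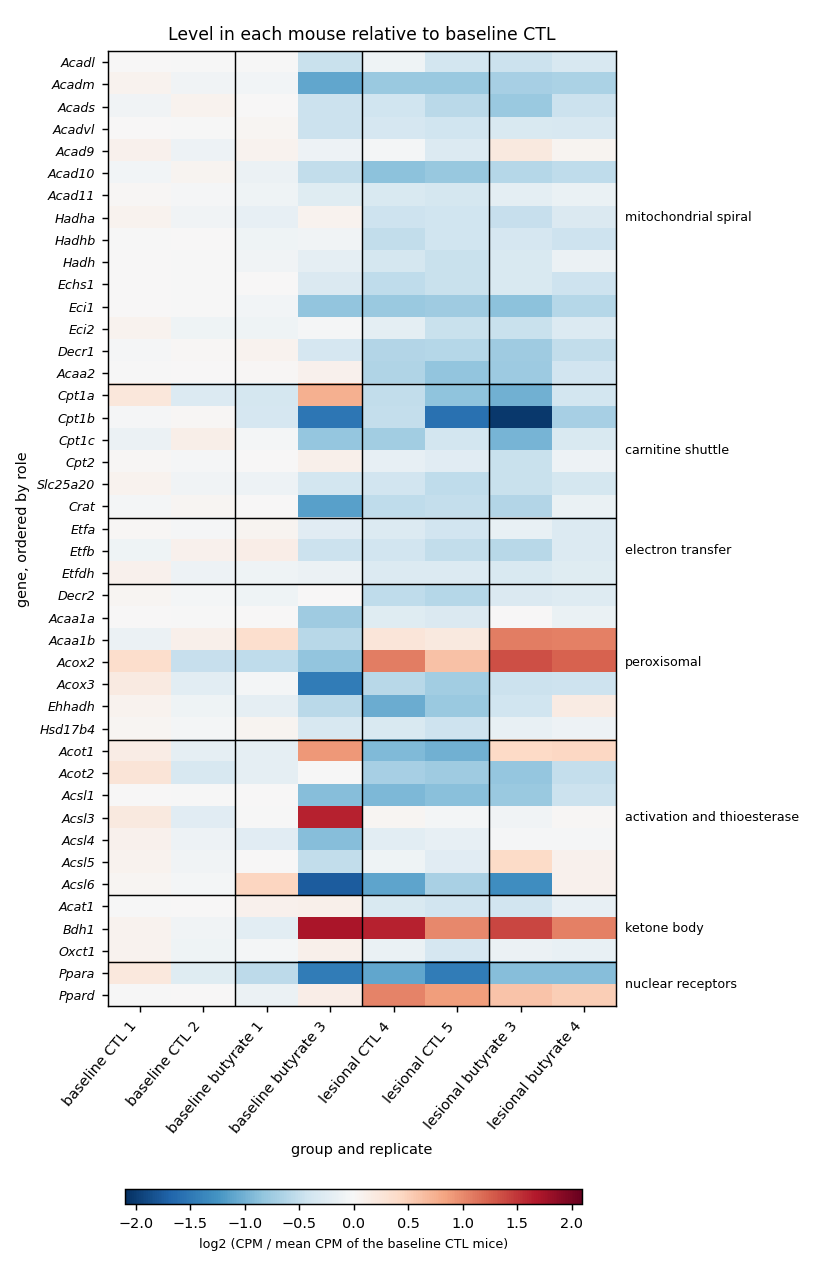
Heat map of the 43 genes (rows, by role) in the 8 mice (columns), coloured by log2 of the CPM over the mean CPM of the 2 baseline CTL mice. Lesional columns are mostly blue in the mitochondrial rows, Ppard, Bdh1, Acox2 and Acaa1b are red there, and baseline butyrate replicate 3 differs from its neighbour in many rows.

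Lesional skin was first compared with baseline skin in CTL mice, to see how the genes differed with HDM exposure. Most of them stood lower in lesional skin. Of the 43 genes, 38 had a negative log2 fold change, with a median of -0.45 compared with -0.015 over all tested genes, and in 37 both lesional mice lay below both baseline mice, while 4 lay above. Among all tested genes, 38.5% lay below and 36.7% above in this way. With all 8 mice, 2 genes passed a false discovery rate (FDR) of 0.1 in edgeR's quasi-likelihood test, Acaa2 lower and Ppard higher, against 4.83% of all genes (1.93% lower), and 0 also passed a fold of 2, against 3.58%. Without baseline butyrate replicate 3, which widens the spread shared by the fit although it is in neither group, 30 of the 43 passed an FDR of 0.1 (27 lower, 3 higher), against 38.7% of all genes (19.8% lower), and 2 passed the fold as well, against 12.5%. A fit of only the 4 compared mice gave 35 (32 lower), against 50.5% (25.6% lower), and DESeq2 with all mice called 11, against 12.8%. Both calls made by edgeR with all mice, Acaa2 and Ppard, were lost when 1 mouse was left out. This held for each of the 6 baseline CTL, lesional CTL or lesional butyrate mice. Fewer genes of the whole table were called in each of these fits too, so the loss was not particular to Acaa2 and Ppard. Their log2 fold changes were -0.832 to -0.624 and 0.884 to 1.047.

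All 15 genes of the mitochondrial spiral had negative log2 fold changes, from -0.83 (Acad10) to -0.16 (Acad9), with a median of -0.47, and 14 did not overlap between groups. Acaa2, the thiolase that closes the spiral, was at 145 and 146 CPM in baseline CTL skin and at 94.5 and 81.7 CPM in lesional CTL skin. It fell by 0.73 on the log2 scale (SE 0.16, edgeR FDR 0.0874). Acadm, the medium-chain acyl-CoA dehydrogenase, was at 209 and 188 CPM in baseline skin and at 116 and 115 CPM in lesional skin, with a log2 fold change of -0.78 (SE 0.31, edgeR FDR 0.243, and 0.00459 without baseline butyrate replicate 3). Both lesional mice were thus at close to the same level, well below both baseline mice. Acadvl, which starts the oxidation of very long chains, was at 178 and 177 CPM and then at 139 and 133 CPM. Acads, the short-chain dehydrogenase that acts on butyryl-CoA, was at 29.2 and 32.1 CPM and then at 22.8 and 20.6 CPM. These genes had log2 fold changes of -0.39 and -0.50 and edgeR FDRs of 0.288 and 0.261 with all mice, and of 0.0224 and 0.0464 without baseline butyrate replicate 3. Acadl was closer between groups, at 197 and 196 CPM in baseline and 185 and 150.0 CPM in lesional skin, and was called in neither fit (edgeR FDR 0.522 and 0.206).

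Hadha and Hadhb, from the shared promoter shown above, had similar log2 fold changes of -0.43 and -0.47. Hadha was at 288 and 261 CPM in baseline CTL skin and at 204 and 205 CPM in lesional CTL skin. Hadhb was at 44.8 and 45.0 CPM and then at 31.3 and 33.7 CPM. Neither was called with all mice (edgeR FDR 0.211 and 0.120), and both were without baseline butyrate replicate 3 (0.0347 and 0.0174).

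The 6 carnitine shuttle genes did not overlap between groups and all stood lower in lesional CTL skin, with a median log2 fold change of -0.53, and none was called with all mice. Cpt1a, the form of carnitine palmitoyltransferase 1 found in most tissues and the controlled step of entry into mitochondria, varied between the baseline mice (139 and 95.2 CPM) and was at 81.9 and 64.9 CPM in lesional skin, a log2 fold change of -0.67 (SE 0.42, edgeR FDR 0.403, and 0.115 without baseline butyrate replicate 3). Cpt1b was low, at 1.33 and 1.39 CPM and then at 0.961 and 0.462 CPM. Slc25a20, the carnitine-acylcarnitine translocase, was at 50.2 and 45.2 CPM and then at 36.2 and 32.9 CPM (log2 fold change -0.47, edgeR FDR 0.178, and 0.0247 without that mouse). Cpt2, which frees acyl-CoA inside the mitochondrion, had one of the smallest differences, from 54.5 and 53.3 to 47.7 and 45.9 CPM. The electron transfer genes stood lower as well, with Etfdh, the dehydrogenase that passes electrons on to ubiquinone, at 99.7 and 87.0 CPM and then at 76.8 and 76.3 CPM.

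Of the 7 peroxisomal genes, 5 stood lower and 2 higher in lesional CTL skin. Ehhadh, the peroxisomal bifunctional enzyme (chr16:21761287-21787807, minus strand), was at 14.4 and 12.8 CPM at baseline and at 6.62 and 7.89 CPM in lesional skin, a log2 fold change of -0.91 (SE 0.27, edgeR FDR 0.157, and 0.0334 without baseline butyrate replicate 3). Hsd17b4, a second bifunctional enzyme that handles branched chains, was at 125 and 119 CPM and then at 97.9 and 89.8 CPM. Acox2, the oxidase of branched-chain and bile acid intermediates (chr14:8225511-8259353, minus strand), was at 12.7 and 6.99 CPM at baseline and at 20.8 and 15.0 CPM in lesional skin. Its log2 fold change of 0.86 (SE 0.33) had an edgeR FDR of 0.225 with all mice and of 0.0799 without that mouse, and it was 1.36 without baseline CTL replicate 1 and 0.50 without replicate 2. Acaa1b, a peroxisomal thiolase (chr9:119148023-119157093, minus strand), differed little, at 13.3 and 15.6 CPM and then at 17.2 and 16.7 CPM.

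Among the genes of activation and thioester hydrolysis, 6 of 7 stood lower and did not overlap, and their median log2 fold change, -0.72, was the most negative of the 7 roles. Acsl1, the main long-chain acyl-CoA synthetase of fat and muscle, was at 458 and 452 CPM in baseline CTL skin and at 237 and 249 CPM in lesional CTL skin, a log2 fold change of -0.905 (SE 0.30, edgeR FDR 0.191, and 0.00778 without baseline butyrate replicate 3). Acot1, a cytosolic thioesterase that releases long-chain fatty acids from coenzyme A, was at 51.3 and 40.3 CPM and then at 24.1 and 22.7 CPM, a log2 fold change of -0.97 (SE 0.35, edgeR FDR 0.212, and 0.00621 without that mouse). Its mitochondrial relative Acot2 was at 12.2 and 8.05 CPM and then at 6.25 and 6.00 CPM. The exception was Acsl3, whose groups overlapped (45.1 and 33.2, then 40.5 and 37.9 CPM).

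The ketone body genes and the nuclear receptors differed in mixed directions. Bdh1, which interconverts 3-hydroxybutyrate and acetoacetate (chr16:31422280-31458901, plus strand), was at 17.3 and 15.7 CPM at baseline and at 50.6 and 33.1 CPM in lesional CTL skin, 2.54-fold higher (log2 fold change 1.34, SE 0.59). Its edgeR FDR was 0.275 with all mice and 0.0124 without baseline butyrate replicate 3. Oxct1 and Acat1, the next steps of ketone body use, were slightly lower, with log2 fold changes of -0.24 and -0.36. Ppard (chr17:28232700-28301474, plus strand) was at 43.7 and 44.6 CPM in baseline CTL skin and at 91.3 and 81.4 CPM in lesional CTL skin. It rose 1.95-fold (log2 fold change 0.97, SE 0.14, edgeR FDR 0.0376). Ppara was at 11.6 and 8.27 CPM and then at 4.64 and 3.60 CPM, a log2 fold change of -1.27 (SE 0.37, edgeR FDR 0.149, and 0.0134 without that mouse). The pair of receptors therefore stood on opposite sides of their baseline levels.

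Markers of other cell types differed between the same groups. Skeletal muscle markers (10 of 10 counted, none at 0) summed to 45254 and 53989 CPM in baseline CTL skin and to 19197 and 27042 CPM in lesional CTL skin, and adipocyte markers (9 of 9, none at 0) to 5439 and 4751 CPM and then to 2719 and 3281 CPM. Most of the adipocyte sum was Car3 (4479 and 3415 CPM, then 1914 and 2174 CPM), and the other 8 markers overlapped (959.7 and 1337 CPM, then 804.6 and 1108 CPM). Keratinocyte markers summed to 20790 and 20152 CPM and then to 14434 and 13723 CPM, and sebaceous gland markers (8 of 8, none at 0) to 2035 and 1610 CPM and then to 3688 and 2892 CPM. Neutrophil markers (5 of 5, with Trem1 at 0 in 1 mouse) summed to 13.1 and 16.9 CPM and then to 2654 and 1642 CPM. This list includes S100a8 and S100a9, and the sum is not a count of neutrophils. The part of these cell types in the differences of the 43 genes was not tested. Without TMM factors, on library totals alone, the median of all tested genes shifted by 0.13, and the same 38 and 5 genes stood lower and higher, with a median of -0.32.

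**Figure D3:**
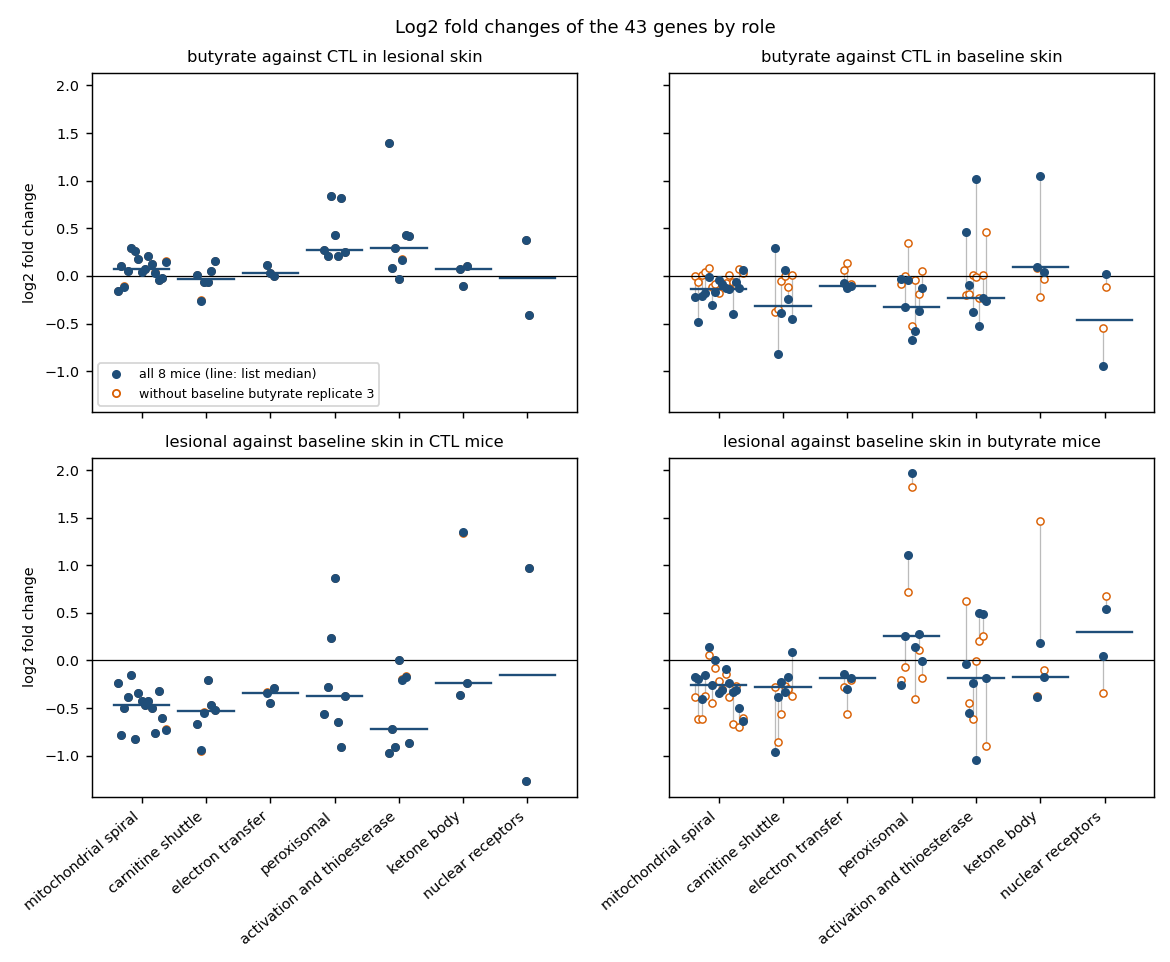
Log2 fold change of each of the 43 genes by role (x axis) in 4 comparisons (panels), with all 8 mice (filled, the line is the list median) and without baseline butyrate replicate 3 (open). All mitochondrial points lie below 0 in lesional against baseline CTL skin, and all 7 peroxisomal points lie above 0 for butyrate in lesional skin.

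Butyrate and CTL mice were then compared in lesional skin, to see whether oral butyrate went with other levels of these genes after HDM exposure. Acot1 differed most, at 24.1 and 22.7 CPM in CTL and 60.95 and 62.15 CPM in butyrate mice, and the 7 peroxisomal genes all stood higher with butyrate. Of the 43 genes, 32 had a positive log2 fold change (median 0.10, compared with -0.005 over all tested genes). In 19, both butyrate mice lay above both CTL mice, and in 1, Ppard, they lay below, where 22.4% and 22.5% of all tested genes did so. In the fit of all 8 mice 0 genes of the whole table passed an FDR of 0.1 in edgeR (734 genes, 4 of the 43 among them, had an unadjusted p below 0.05). Without baseline butyrate replicate 3, 2 of the 43 passed an FDR of 0.1, against 2.03% of all genes, and 1 passed the fold of 2 as well, against 1.22%. In a fit of only the 4 lesional mice, 1 of the 43 passed, against 0.168%. The same calls were made when the other baseline butyrate mouse was left out instead, since either removal takes the spread of that pair out of the fit.

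Acot1 was 2.63-fold higher in lesional butyrate skin (log2 fold change 1.39, SE 0.35). Its edgeR FDR was 0.737 with all 8 mice, 0.0285 without baseline butyrate replicate 3 and 0.0613 with only the lesional mice, and DESeq2 also called it with all 8 mice, against 0.818% of all genes. The replicates of each group lay within 2 CPM of each other, and the butyrate mice were above the baseline CTL mice as well (51.3 and 40.3 CPM). Acot2, its neighbour with the window shown beside it, was at 6.25 and 6.00 CPM in CTL and at 5.78 and 7.16 CPM in butyrate mice, so that the groups overlapped (log2 fold change 0.08, SE 0.27). Of the 50-base stretches of Acot1, 13.56% also occur in Acot2, and 24.55% of those of Acot2 occur in Acot1. The reads of the 2 genes can be confused to that extent.

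**Figure D4:**
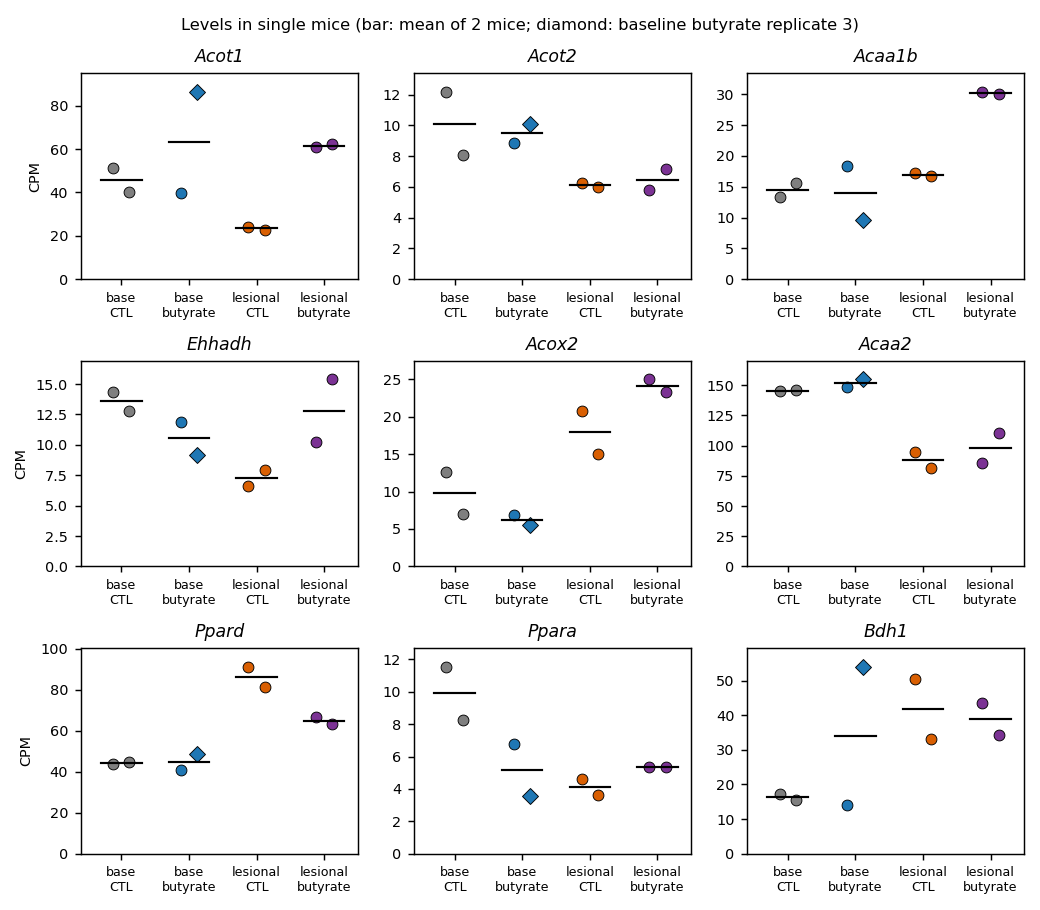
CPM of 9 of the genes in single mice, with the mean of 2 mice as a bar and baseline butyrate replicate 3 as a diamond. Acot1 and Acaa1b are separated between the lesional CTL and lesional butyrate groups, Acot2 is not, and Ppard is highest in lesional CTL skin.

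All 7 peroxisomal genes stood higher with butyrate in lesional skin without overlap, with log2 fold changes of 0.21 to 0.84 and a median of 0.27. The largest differences were those of Acaa1b and Ehhadh. Acaa1b was at 17.2 and 16.7 CPM in CTL and at 30.4 and 30.1 CPM in butyrate mice (log2 fold change 0.84, SE 0.30, edgeR FDR 0.951 with all mice and 0.0616 without baseline butyrate replicate 3). Ehhadh was at 6.62 and 7.89 CPM and then at 10.2 and 15.4 CPM, with the butyrate mice unequal (log2 fold change 0.82, SE 0.27, edgeR FDR 0.914 and 0.182). Acox2 was at 20.8 and 15.0 CPM and then at 25.0 and 23.3 CPM. Hsd17b4 was at 97.9 and 89.8 CPM and then at 109 and 114 CPM. The remaining 3, Decr2, Acaa1a and Acox3, had log2 fold changes of 0.27, 0.21 and 0.21, and none of the 7 was called with all mice.

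The acyl-CoA synthetases differed less. Acsl5, which supplies acyl-CoA for storage and oxidation, was at 340.3 and 307 CPM in CTL and at 482 and 388 CPM in butyrate mice (log2 fold change 0.43, SE 0.22), and Acsl1 was at 237 and 249 CPM and then at 265 and 331 CPM (0.30, SE 0.30). Acsl4 also stood higher without overlap (0.17), while Acsl3 and Acsl6 overlapped, and none was called (lowest edgeR FDR among these without baseline butyrate replicate 3, 0.255 for Acsl5).

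Mitochondrial genes were near their CTL levels in lesional butyrate skin. The 15 spiral genes had log2 fold changes of -0.16 to 0.29 with a median of 0.07. Without overlap, 7 of them were higher (Acadm, Acadvl, Acad9, Acad10, Acad11, Hadh and Echs1) and none was lower, against 22.4% and 22.5% of all tested genes. Acaa2 was at 94.5 and 81.7 CPM in CTL and at 85.5 and 110 CPM in butyrate mice. Acads was at 22.8 and 20.6 CPM and then at 17.9 and 22.3 CPM, and Acadl at 185 and 150.0 CPM and then at 144 and 157 CPM, both overlapping between groups. Cpt1a was at 81.9 and 64.9 CPM and then at 57.8 and 89.9 CPM, and all 6 shuttle genes and all 3 electron transfer genes overlapped. Bdh1 was at 50.6 and 33.1 CPM and then at 43.5 and 34.2 CPM, and Oxct1 and Acat1 had log2 fold changes of 0.10 and 0.07.

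The 2 receptors again lay on opposite sides. Ppard was at 91.3 and 81.4 CPM in lesional CTL skin and at 66.8 and 63.1 CPM with butyrate (log2 fold change -0.41, SE 0.14, edgeR FDR 0.933 with all mice and 0.133 without baseline butyrate replicate 3). Ppara was at 4.64 and 3.60 CPM and then at 5.35 CPM in both mice (log2 fold change 0.38, SE 0.37).

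Between the lesional groups, keratinocyte markers summed to 14434 and 13723 CPM in CTL and to 21417 and 19595 CPM in butyrate mice, with 6 of 8 higher without overlap. Sebaceous gland markers summed to 3688 and 2892 CPM and then to 3979 and 3377 CPM, with 5 of 8 higher without overlap. Neutrophil markers were lower in 5 of 5, at 2654 and 1642 CPM and then at 772 and 346 CPM, and muscle markers overlapped (19197 and 27042, then 15963 and 28517 CPM). Of all tested genes, 22.4% were higher and 22.5% lower without overlap in this comparison. The part of these cell types in the differences of Acot1 and the peroxisomal genes was not tested.

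In butyrate mice, lesional skin was compared with baseline skin in the same way. Acox2, Acaa1b and Ppard stood higher and Acaa2 lower in lesional skin, and several other genes depended on baseline butyrate replicate 3. Of the 43, 30 had a negative log2 fold change (median of -0.18, compared with -0.045 over all genes), 15 lay lower and 5 higher without overlap (16.9% and 15.7% of all tested genes), and 0 were called, against 0.356% of all genes at an FDR of 0.1 in edgeR and 0.350% with the fold (1993 genes, 7 of the 43 among them, had an unadjusted p below 0.05, and DESeq2 called 4 of the 43 at any fold, against 6.73% of all genes). Without that mouse a single baseline butyrate mouse is left, which the fit assumes to vary like the other groups. Then 14 of the 43 passed an FDR of 0.1, against 14.2%, and 2 (Acox2 and Bdh1) passed the fold as well, against 5.94%.

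Acox2 showed the largest difference, at 6.82 and 5.53 CPM in baseline butyrate skin (replicates 1 and 3) and at 25.0 and 23.3 CPM in lesional butyrate skin, 3.91-fold higher (log2 fold change 1.97, SE 0.33, edgeR FDR 0.132, and 1.82 with an FDR of 0.0635 without replicate 3). Acaa1b was at 18.4 and 9.67 CPM and then at 30.4 and 30.1 CPM (log2 fold change 1.11, edgeR FDR 0.261, and 0.72 with an FDR of 0.0611). Ppard was at 40.7 and 48.8 CPM and then at 66.8 and 63.1 CPM (log2 fold change 0.54, edgeR FDR 0.247, and 0.68 with an FDR of 0.0474). Acaa2 was at 148 and 155 CPM and then at 85.5 and 110 CPM (log2 fold change -0.63, edgeR FDR 0.237, and -0.60 with an FDR of 0.0930).

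Other values rested on the mouse that stood apart. Bdh1 was at 14.1 CPM in baseline butyrate replicate 1 and at 54.1 CPM in replicate 3, so that its log2 fold change was 0.19 with and 1.46 without the latter (edgeR FDR 0.921 and 0.0604). Acot1 was at 39.97 and 86.4 CPM in these mice, and its log2 fold change was -0.04 with both and 0.62 without replicate 3 (edgeR FDR 0.975 and 0.0796). Acsl3 was at 38.7 and 120 CPM, and its log2 fold change of -1.05 became -0.01 without replicate 3. Cpt1a was at 90.03 and 197 CPM, and its log2 fold change of -0.96 became -0.28. The comparison of lesional with baseline CTL skin shares its lesional CTL mice with the comparison of butyrate with CTL.

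In baseline skin, butyrate mice were compared with CTL mice. Leaving replicate 3 aside, the butyrate mouse was close to the CTL mice for most genes. With all mice the 43 genes had a median log2 fold change of -0.13 (all tested genes 0.001), 34 were lower and 9 higher, 11 lay lower and 2 higher without overlap (15.9% and 13.8% of all tested genes), and 0 genes of the whole table were called in edgeR (529 had an unadjusted p below 0.05, 1 of the 43 among them, and limma-voom and DESeq2 called 0 of the 43). Without replicate 3 the median was -0.05, with 26 lower and 17 higher.

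Replicate 3 lay above all 3 other baseline mice in 10 of the 43 genes, below them in 29 and among them in 4. It was farthest above in Bdh1 (54.1 against 14.1 to 17.3 CPM), Acsl3 (120 against 33.2 to 45.1 CPM), Acot1 (86.4 against 39.97 to 51.3 CPM) and Cpt1a (197 against 90.03 to 139 CPM). It was farthest below in Acsl6 (2.33 against 7.55 to 10.7 CPM), Acox3 (61.8 against 146 to 195 CPM), Cpt1b (0.476 against 1.07 to 1.39 CPM) and Ppara (3.57 against 6.77 to 11.6 CPM). The log2 fold changes of Bdh1 (1.05), Acsl3 (1.02) and Acot1 (0.465) with butyrate were accordingly reversed or near 0 without it, at -0.225, -0.016 and -0.20. Ppara was the gene with the lowest value in both cases (-0.94 with and -0.55 without, edgeR FDR 0.714 and 1).

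Whether butyrate went with unlike differences in lesional and baseline skin was tested as an interaction in the same model. None of the 43 genes was called (0 of all tested genes were, with 703 at an unadjusted p below 0.05, 2 of the 43 among them, and DESeq2 called 0 of the 43). The median difference was 0.300, and 0.16 without baseline butyrate replicate 3. All 7 peroxisomal genes had a positive difference both with (0.31 to 1.19) and without that mouse (0.19 to 1.01). A positive sign was not particular to them, since with all mice 37 of the 43 genes had a positive difference and 6 a negative one. For 7 genes, Acad10, Acad11, Hadh, Acox2, Ehhadh, Acsl4 and Ppara, both butyrate mice lay above both CTL mice in lesional skin and below both in baseline skin, as for 4.31% of all tested genes. Among these the difference was 1.19 for Ehhadh (SE 0.38, edgeR FDR 0.840, and 1.01 with an FDR of 0.529 without replicate 3) and 1.32 for Ppara (SE 0.52, edgeR FDR 0.840, and 0.93 with an FDR of 0.558). For Acot1 it was 0.93 (SE 0.49) and became 1.59 (SE 0.21, edgeR FDR 0.318) without that mouse.

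Other genes of the pathway, listed beside the 43, were compared in the same fits. Of 21 tested genes of oxidation and ketone body metabolism, all had negative log2 fold changes in lesional against baseline CTL skin (median -0.48). With all mice 1 passed an FDR of 0.1 in edgeR, against 4.83% of all genes. That share of all genes applies to the same comparison in the lists below. With butyrate in lesional skin 15 of these 21 were higher and 6 lower (median 0.11), and 0 were called.

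Enzymes that activate short and medium chains act at the first step of butyrate use. Of 9 tested genes, 8 were lower in lesional CTL skin (median log2 fold change -0.77), and 1, Acsf2, passed the FDR of 0.1 with all mice. Acsf2, a mitochondrial medium-chain synthetase, was at 40.5 and 40.8 CPM at baseline and at 20.7 and 24.3 CPM in lesional CTL skin, and fell by 0.85 on the log2 scale (SE 0.19, edgeR FDR 0.0877). Acss2, the cytosolic acetyl-CoA synthetase, was at 75.7 and 108 CPM in baseline CTL, 50.9 and 57.8 CPM in lesional CTL and 82.5 and 78.1 CPM in lesional butyrate skin (log2 fold change with butyrate 0.56, SE 0.24, edgeR FDR 1.00). Its mitochondrial counterpart Acss1 was at 22.2 and 23.4 CPM in lesional CTL and 17.0 and 22.7 CPM in lesional butyrate skin. Acsm3, a medium-chain synthetase that accepts butyrate, was at 4.86 and 6.37 CPM and then at 11.5 and 8.79 CPM (log2 fold change 0.85, SE 0.75), and Acsm5 was under 1 CPM in all lesional mice.

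Of 10 tested genes of uptake and carnitine supply, 1 passed with all mice, Fabp5, an epidermal fatty acid binding protein, which rose from 236 and 198 to 958 and 608 CPM in CTL mice with HDM exposure (log2 fold change 1.85, SE 0.37, edgeR FDR 0.0728). Of 14 regulators and PPAR targets, Ppargc1a, a coactivator of mitochondrial genes, passed, at 27.2 and 20.1 CPM and then at 7.69 and 7.34 CPM (log2 fold change -1.66, SE 0.32, edgeR FDR 0.0676). Pdk4, which turns fuel use from glucose to fatty acids, was at 806 and 435 CPM and then at 99.8 and 77.6 CPM (log2 fold change -2.81, SE 0.74, edgeR FDR 0.127, and 0.0204 without baseline butyrate replicate 3). The PPAR target Angptl4 overlapped between the CTL groups (79.3 and 70.5, then 79.4 and 70.2 CPM) and was at 30.6 and 54.7 CPM in lesional butyrate skin (log2 fold change against CTL -0.81, SE 0.33, edgeR FDR 1.00). None of 9 tested further thioesterases was called with all mice. With butyrate in lesional skin, 0 genes of these 5 lists were called with all mice, and 1, the fatty acid transporter Slc27a1, was without baseline butyrate replicate 3 (85.8 and 93.5 CPM in CTL, 126 and 122 CPM in butyrate mice, edgeR FDR 0.0939).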

How the data were processed

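Total RNA of skin was sequenced after TruSeq preparation, 1 library per mouse. The authors aligned reads with STAR 2.5.2 to GRCm38 through RNASik and counted them per gene with featureCounts, and the deposited table holds raw counts of protein-coding genes without normalization, per the labels and the study's methods. Groups were taken from the labels, and SCFA is read as butyrate from the study's methods. P-values measure the spread between the mice sampled. At these depths 3 counts correspond to 0.138 to 0.169 CPM, and counting error limits genes near that level, of which Cpt1b is the closest.

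Counts of all genes were tested with edgeR 4.0.16 (R 4.3.3) quasi-likelihood fits (robust, TMM, filterByExpr with a minimum count of 10, prior count 0.125, 4 group means, 8 mice, 4 residual degrees of freedom, common biological coefficient of variation 0.276). Benjamini-Hochberg adjustment ran over all 15163 tested genes. Genes were called at an FDR below 0.1, with or without a fold above 2, as stated. The code was tested on simulated data. The same contrasts were refitted by DESeq2 1.42.0 and by limma-voom (limma 3.58.1), and with RLE normalization, no filter, a prior count of 2, only the compared mice, and leaving out each mouse. The fits on library totals without TMM and by limma-voom on only the compared mice were added after seeing the data.

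The 43 genes, the lists and the tests were chosen with earlier results of these data known. Named are genes that passed an FDR of 0.1, the 3 highest and 3 lowest of each comparison at a mean of 1 CPM or more, and genes fixed for their role. Single values of some listed pathway genes are not reported here. Exon lengths and positions are from GENCODE vM21 (GRCm38), promoters from RefSeq (GRCm38.p6). Markers of fibroblasts, endothelium, macrophages, brown adipocytes and cell cycle are given in the closing section.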

Additional observations from a re-analysis of the deposited data

How the results depend on the processing

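No paired analysis was possible because each mouse gave 1 library, in 1 of the 4 groups. Of the 43 genes, the number that passed both the FDR of 0.1 and the fold of 2 depended on the fit. For butyrate against CTL in lesional skin it was 0 with all mice and 1 by DESeq2 (0.818% of all genes). It was 1 with only the compared mice by edgeR (0.168%) or limma-voom (0.0940%), and the gene was Acot1 each time. For butyrate against CTL in baseline skin it was 0, and 0 to 7 when leaving out a mouse, 7 arising without baseline butyrate replicate 1, where the mouse that stood apart was alone in its group and 24.1% of all genes passed, and the median moved from -0.357 to -0.049. For lesional against baseline skin in CTL mice it was 0 (3.58% of all genes), and 2 at an FDR of 0.1 with any fold (4.83%). It was 1 by DESeq2 (7.21% of all genes), 1 on library totals (3.96%, median -0.322) and 2 with only the compared mice by either tool (12.9%). For lesional against baseline skin in butyrate mice it was 0, 2 by DESeq2 (4.60% of all genes), and 0 to 5 when leaving out a mouse (5 without baseline butyrate replicate 1, against 19.1% of all genes, 2 without replicate 3), with medians of -0.284 to 0.030. For the difference of the butyrate effects it was 0, and 0 to 11 when leaving out a mouse (11 without baseline butyrate replicate 1, against 20.9% of all genes), with medians of 0.162 to 0.443.

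Leaving out a mouse reversed 5 of the named log2 fold changes: Acadl (-0.298 to 0.002, reversed without lesional CTL replicate 4) and Acads (-0.280 to 0.040, without lesional butyrate replicate 3) for butyrate in lesional skin, and Acot1 (-0.196 to 0.912), Acsl3 (-0.016 to 1.615) and Bdh1 (-0.225 to 1.711) for butyrate in baseline skin, without baseline butyrate replicate 3. Over 40 named values and the alternatives other than those added after seeing the data, 463 kept their direction and side of the threshold, 79 passed it only under the alternative, 13 no longer passed and 5 reversed. Of the 13, 12 were Acaa2 and Ppard in CTL mice without each of the 6 mice that were not baseline butyrate, and 1 was Acaa2 without the filter on low counts. Fewer genes of the whole table were called in each of these fits as well. Acaa2 was not called on library totals either.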

Other observations

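Markers of further cell types were summed per mouse. Fibroblast markers (5 of 5) ranged from 1676 to 4116 CPM, endothelial markers (4 of 4) from 92.6 to 257 CPM, and macrophage markers (3 of 4 listed genes counted) from 119 to 617 CPM, and in each the lowest or next to lowest value was that of baseline butyrate replicate 3. Brown adipocyte markers (5 of 5) ranged from 138 to 338 CPM, although Ucp1, which defines these cells, did not exceed 0.278 CPM and was at 0 in 2 mice. Cell cycle genes (4 of 4) summed to 660 CPM in baseline butyrate replicate 3 and to 217 to 392 CPM in the other mice.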
